A study of Rattus norvegicus with 32 samples.

Results

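Amino acids and small peptides released in the gut enter the body through a set of transporter genes, 10 of which were followed here in the intestinal mucosa of lean and obese Zucker rats. The genes were *Slc7a15*, *Slc15a1*, *Slc6a19*, *Slc7a9*, *Slc3a1*, *Slc7a7*, *Slc7a8*, *Slc1a1*, *Slc3a2* and *Slc1a5*, out of 17245 genes that a probe set of the array names alone. All 10 were measured, each by the probe set with that gene as its only symbol, and by the one of highest mean signal for *Slc1a1*, which has a second. Each of 32 male rats gave 1 Affymetrix Rat Gene 1.1 ST array, and values are log2 RMA signals, the robust multichip average of the probes of a set.

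The lean rats (ZL) were Zucker rats with 1 mutant allele of the leptin receptor gene (Lepr +/fa), and the rats that become obese (ZO) carried 2 (Lepr fa/fa). The fa mutation is inherited and present in all cells, and ZO rats at baseline had not yet become obese. There were 4 ZL baseline and 4 ZO baseline rats taken before the intervention (day 0), and 4 ZL placebo and 4 ZO placebo rats, fed milk powder with sucrose and vitamin C for 30 days. The remaining 16 were ZO probiotic rats, given lactobacilli, bifidobacteria or a mixture of both for 30 days, and the labels do not say which preparation each of them received. The labels give 1 and the same age for baseline and 30-day rats, so age was not used. By the study's design the 30-day rats were killed 30 days after the baseline rats. In every comparison with baseline, growth and age over these days cannot be told apart from the feeding.

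Enterocytes take up protein digests at the brush border and release amino acids to the blood across the basolateral membrane. *Slc15a1* codes for the proton-coupled carrier of di- and tripeptides, *Slc6a19* for the sodium-dependent carrier of neutral amino acids and *Slc1a1* for that of glutamate and aspartate, all at the brush border. Heteromeric transporters join a light chain to a heavy chain, which brings it to the membrane. At the brush border the heavy chain of *Slc3a1* carries the light chain of *Slc7a9* and exchanges cystine and dibasic amino acids. At the basolateral side the heavy chain of *Slc3a2* carries the light chains of *Slc7a7*, an exporter of dibasic amino acids, and *Slc7a8*, an exchanger of neutral ones. *Slc7a15* belongs to the light chain family and is described in mouse as an aromatic-preferring transporter, and *Slc1a5* exchanges neutral amino acids, glutamine among them.

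The 250 bases before the annotated start were read from RefSeq (GRCr8) for 8 of the 10 genes. They are printed for the 4 genes whose signals differed between ZO and ZL rats in the tests below, 5′ to 3′ on the gene's strand, with matches to searched motifs in capitals. *Slc3a2* has 2 annotated starts, and *Slc1a1* and *Slc1a5* have no entry.
Slc7a15, chr6:37134502-37134751, minus strand: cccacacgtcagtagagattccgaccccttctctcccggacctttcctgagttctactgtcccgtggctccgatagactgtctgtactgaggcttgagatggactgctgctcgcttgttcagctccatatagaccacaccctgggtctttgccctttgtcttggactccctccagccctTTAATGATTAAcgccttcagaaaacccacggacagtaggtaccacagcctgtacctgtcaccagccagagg
Slc3a2, first start, chr1:215048065-215048314, minus strand: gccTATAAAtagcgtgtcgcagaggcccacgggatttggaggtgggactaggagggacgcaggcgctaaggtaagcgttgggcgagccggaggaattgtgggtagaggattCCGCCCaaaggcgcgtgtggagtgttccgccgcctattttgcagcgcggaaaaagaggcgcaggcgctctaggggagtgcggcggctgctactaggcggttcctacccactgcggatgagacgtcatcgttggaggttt
Slc3a2, second start, chr1:215039671-215039920, minus strand: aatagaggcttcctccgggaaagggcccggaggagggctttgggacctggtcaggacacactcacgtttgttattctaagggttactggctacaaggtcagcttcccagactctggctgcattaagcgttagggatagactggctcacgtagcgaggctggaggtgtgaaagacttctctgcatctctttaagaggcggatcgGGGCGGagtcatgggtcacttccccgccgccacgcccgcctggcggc
Slc7a7, chr15:31835684-31835933, minus strand: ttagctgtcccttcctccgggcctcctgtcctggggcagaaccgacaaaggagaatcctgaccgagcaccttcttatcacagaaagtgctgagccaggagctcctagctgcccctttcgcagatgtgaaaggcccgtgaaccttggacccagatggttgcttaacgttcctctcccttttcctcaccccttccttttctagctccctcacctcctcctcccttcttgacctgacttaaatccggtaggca
Slc7a8, chr15:32212716-32212965, minus strand: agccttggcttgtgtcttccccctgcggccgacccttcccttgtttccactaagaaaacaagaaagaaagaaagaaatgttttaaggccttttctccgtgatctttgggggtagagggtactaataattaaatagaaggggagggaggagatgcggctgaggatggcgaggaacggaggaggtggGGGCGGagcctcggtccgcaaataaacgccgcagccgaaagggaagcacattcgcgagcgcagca
The capitals mark the HNF1 core (TTAAT and ATTAA with 1 base between) in *Slc7a15*, at -71 to -61 from the start, and the TATA box (TATAAA) and GC box (GGGCGG) elsewhere, all searched on both strands. HNF1 is a factor of gut and kidney epithelium. Its core stood in 0.0956% of 33469 promoters of the same length, the TATA box in 12.9% and the GC box in 30.5%. *Slc7a15* was the only 1 of the 8 genes with that core in exact letters. Stretches 1 letter away from the core, as in *Slc7a8* and *Slc7a9*, were not counted. The *Slc7a7* window matched none of the 5 motifs searched, and *Slc3a1* held the HNF4 letters CAAAGTCCA (0.338% of promoters) from -89 to -81. The C/EBP-ATF letters TGATGNAA (3.4% of promoters) matched in none of the 8 genes. A match is a description of the letters and not a measured binding site.

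The mucosa carried the defining genes of absorptive small intestine in every group. The mean of 9 enterocyte markers lay between 11.63 and 12.58 over all rats, and the colon gene *Hoxb13* had group means of 2.93 to 3.09. The other 4 genes of the colon list had higher signals, with group means of 4.15 to 5.21 for *Aqp8*, 4.93 to 7.05 for *Best2*, 6.003 to 8.11 for *Car1* and 11.63 to 11.92 for *Slc26a3*. The array of ZL placebo rat C13 stood apart. It had the ileal bile acid-binding gene *Fabp6* at 8.71 against a mean of 13.27 in the other 3 ZL placebo rats, and *Slc10a2*, the ileal bile acid transporter gene, at 7.01 against 11.47. The 7 ileum markers averaged 7.86 in C13 and between 9.95 and 11.36 over the ZL baseline rats, while its 7 proximal small intestine markers averaged 9.51, the highest of any rat. Its *Slc1a1* signal of 6.78 lay below the other 31 arrays (8.35 to 9.65), *Slc7a15* was below the mean of the other ZL placebo rats (9.31 against 11.46), and *Slc7a7*, *Slc7a8* and *Slc3a2* were higher in C13 than in any other rat (11.03, 11.28 and 12.19). The calls among the 10 genes against the ZL placebo group are therefore also given without C13. Among the ZL baseline rats C4 had the lowest mean of the ileum markers, at 9.95 against 10.98 to 11.36 in C1, C2 and C3.

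**Figure D1:**
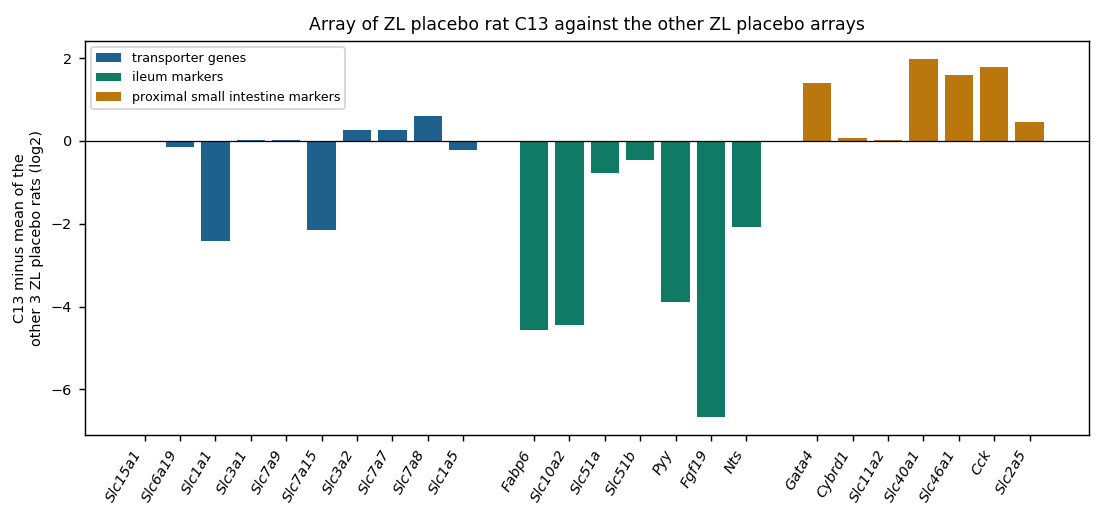
Difference on the log2 scale between the array of ZL placebo rat C13 and the mean of the other 3 ZL placebo arrays, for the 10 transporter genes (left), 7 ileum markers (middle) and 7 proximal small intestine markers (right); bars start at 0 and have no error because C13 is 1 rat. All 7 ileum markers are lower in C13, and among the transporter genes *Slc1a1* (-2.41) and *Slc7a15* (-2.16) differ most.

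Of the 10 genes, 5 differed among the 5 groups by limma's F test at adjusted p under 0.05, and 12.2% of all 29214 probe sets did. They were *Slc7a15* (adjusted p = 2.48e-05), *Slc7a7* (0.000408), *Slc3a2* (0.000552), *Slc1a5* (0.000851) and *Slc7a8* (0.0287), that is, the light chain genes other than *Slc7a9*, the basolateral heavy chain gene and the glutamine exchanger gene. The brush border genes *Slc15a1*, *Slc6a19*, *Slc1a1*, *Slc3a1* and *Slc7a9* did not pass. In bulk mucosa, fewer cells of a type and less RNA per cell cannot be told apart.

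Between ZO placebo and ZL placebo rats, 3 of the 10 genes were lower and 0 higher, where 1.04% of all probe sets were called (0.493% lower and 0.548% higher). The median log2 fold change of the 10 was -0.11, beside -0.0040 over all probe sets, and 8 of the 10 were negative. Without C13 only *Slc7a15* of the 10 was called there, and over all probe sets 187 were called in place of 304. The groups at baseline gave no such calls. There limma called 0 of the 10 genes and 0% of all probe sets, with 1 gene and 11.5% of probe sets at an unadjusted p under 0.05. Over 30 days of placebo, 1 gene was lower in ZO rats (1.36% of probe sets called) and 1 was higher in ZL rats (0.911%). Without C13 it was 0 in ZL rats, and over all probe sets 84 were called in place of 266.

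ZO probiotic rats had 4 of the 10 genes lower than ZL placebo rats (4.66% of probe sets called, 2.56% lower and 2.1% higher). Without C13 it was 3 genes, and over all probe sets 684 were called in place of 1360. Against ZO baseline rats, 2 of the 10 were lower in ZO probiotic rats (5.61% called, 3.18% lower and 2.44% higher). Both comparisons have 16 rats on one side and share their reference rats with the placebo comparisons, so they are not separate evidence. Their medians over the 10 genes were -0.17 and -0.13, beside 0.013 and 0.00011 over all probe sets. Between ZO probiotic and ZO placebo rats, limma called 0 of the 10 genes and 0.00342% of all probe sets, and at an unadjusted p under 0.05 it passed 0 of the genes and 4.12% of probe sets.

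**Figure D2:**
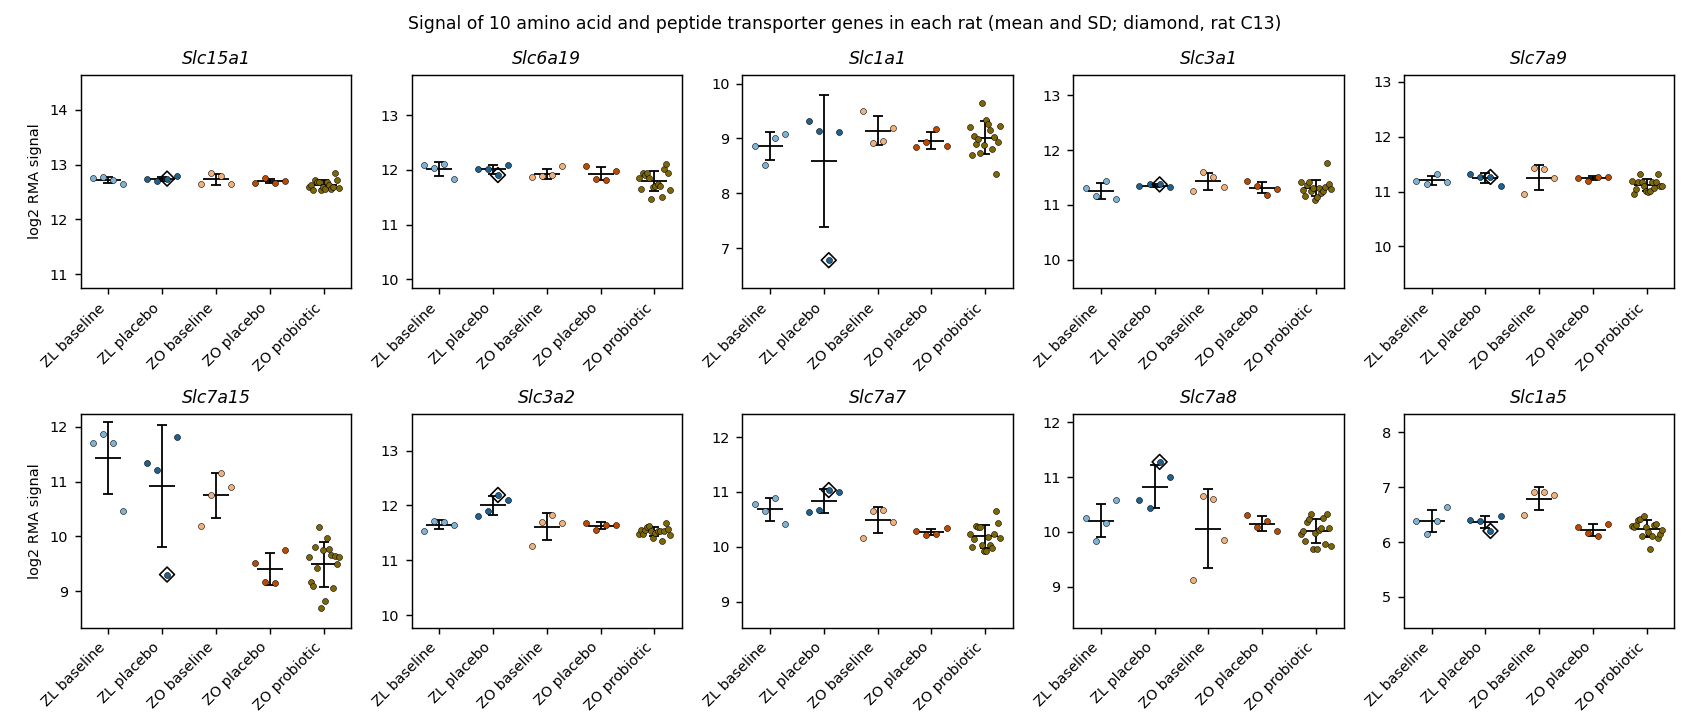
Log2 RMA signal of the 10 genes, 1 point per rat in 5 groups (n = 4, 4, 4, 4 and 16), with the mean and SD as bars and rat C13 marked by a diamond; each panel spans the same number of log2 units on its own axis. *Slc7a15* ranges from 8.70 to 11.87, whereas *Slc15a1* stays between 12.53 and 12.86.

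*Slc7a15*, the aromatic-preferring light chain gene, had the largest fold changes of the 10 between ZO and ZL placebo rats and over 30 days in ZO rats. Its signal in ZL baseline rats C1, C2, C3 and C4 was 11.71, 11.71, 11.87 and 10.46. In ZL placebo rats C11, C13, C15 and C16 it was 11.35, 9.31, 11.21 and 11.82. ZL rats were thus above 11 at both times except C4 and C13. ZO baseline rats Z1, Z2, Z3 and Z4 had 10.20, 11.17, 10.75 and 10.89, and ZO placebo rats Z11, Z13, Z15 and Z16 had 9.51, 9.16, 9.17 and 9.76. The 16 ZO probiotic rats ran from 8.70 to 10.18, with a median of 9.63. Every ZO rat at 30 days was below every ZO rat at baseline, and the ZO placebo rats were below 3 of the 4 ZL placebo rats, with C13 in their range. The highest probiotic rat (Z45, 10.18) lay just under the lowest ZO baseline rat (Z1, 10.20). How many of all probe sets separate these rats in the same way was not counted.

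From high to low, the group means of *Slc7a15* were 11.44 ± 0.66 (SD, n = 4) in ZL baseline, 10.92 ± 1.11 in ZL placebo, 10.75 ± 0.41 in ZO baseline, 9.49 ± 0.41 (n = 16) in ZO probiotic and 9.40 ± 0.29 in ZO placebo rats. ZO placebo rats were 2.87-fold lower than ZL placebo rats (log2 fold change -1.52, SE 0.37, adjusted p = 0.0379). Without C13 the difference was 4.18-fold (-2.06, adjusted p = 0.000783). The call was lost without any of 6 rats (C11, C15, C16, Z11, Z13 or Z15), with adjusted p up to 0.190 over the 8 rats left out in turn, and with only these groups in the fit (adjusted p = 0.239). ZO probiotic rats were 2.70-fold lower than ZL placebo rats (-1.43, SE 0.29, adjusted p = 0.00316), and 3.92-fold lower without C13 (adjusted p = 2.85e-05). This call held with each of the 4 ZL placebo rats left out.

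Over time in ZO rats the *Slc7a15* signal was 2.40-fold lower with a probiotic than at baseline (-1.26, SE 0.29, adjusted p = 0.00824). With placebo the difference from baseline was -1.35 (SE 0.37, adjusted p = 0.0606), which did not pass over all probe sets. It passed (adjusted p = 0.0108) where C13, no part of this comparison, was left out of the shared estimate of the spread. ZL placebo rats differed from ZL baseline rats by -0.52 (SE 0.37, adjusted p = 0.503) and, without C13, by 0.02. At baseline ZO minus ZL was -0.69 (SE 0.37, adjusted p = 0.477). The test of the difference of the 30-day changes, ZO minus ZL, gave -0.84 (SE 0.53, adjusted p = 0.693), and -1.38 without C13 (adjusted p = 0.376). Neighbours in the order of means, ZL baseline with ZL placebo, and ZO probiotic with ZO placebo, did not pass these tests. C4, the low ZL baseline rat for *Slc7a15*, was also the one with the lowest ileum marker mean. In ZO rats over 30 days of placebo, several marker lists differed beside these values. Limma called the enterocyte marker *Fabp1* (0.25), the proximal marker *Slc2a5* (0.96) and the plasma cell marker *Jchain* (1.48) higher, and the goblet cell marker *Spink4* lower (-1.58). With a probiotic it called 4 of 9 enterocyte markers higher, *Slc2a5* and *Jchain* higher and *Spink4* lower than at baseline. Of all probe sets 2.44% were called higher and 3.18% lower with a probiotic than at baseline. The mean of the 9 enterocyte markers ran from 11.63 to 12.32 in ZO baseline, 12.38 to 12.42 in ZO placebo and 12.27 to 12.58 in ZO probiotic rats, and that of the 4 goblet cell markers from 12.00 to 12.18, 11.48 to 11.80 and 11.23 to 11.87. The goblet cell mean moved mostly with *Spink4*, whose group means were 10.70, 9.13 and 8.94 in that order. *Tff3* had 12.56, 12.54 and 12.52, *Clca1* 12.82, 12.64 and 12.68, and *Agr2* 12.14, 12.03 and 12.01. Of the 7 ileum markers 0 were called in either comparison. The part of these lists and of C4 in the *Slc7a15* values was not tested.

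The basolateral heavy chain gene *Slc3a2* was lower in ZO than in ZL rats at 30 days. ZL placebo rats C11, C13, C15 and C16 had 11.81, 12.19, 11.90 and 12.10, and the ZO placebo rats Z11, Z13, Z15 and Z16 had 11.69, 11.64, 11.55 and 11.64. The 4 ZL placebo rats were all above the 4 ZO placebo rats and above the ZO probiotic rats (11.35 to 11.68, median 11.54). No share of all probe sets without such overlap was counted. ZL baseline rats C1, C2, C3 and C4 had 11.53, 11.70, 11.71 and 11.63, and the ZO baseline rats Z1, Z2, Z3 and Z4 had 11.25, 11.83, 11.70 and 11.68, so the baseline groups overlapped. The ZL placebo group was the one that stood apart, with a mean of 12.00 ± 0.18, and the means of the other groups ran from 11.52 to 11.65.

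The fold changes of *Slc3a2* were small. ZO placebo rats were 1.29-fold lower than ZL placebo rats (-0.37, SE 0.09, adjusted p = 0.0348), and -0.30 without C13 (adjusted p = 0.168). ZO probiotic rats were 1.39-fold lower than ZL placebo rats (-0.47, SE 0.07, adjusted p = 0.000101), and this call held without C13 (-0.41, adjusted p = 0.00208). In ZL rats the gene was 1.28-fold higher after 30 days of placebo than at baseline (0.35, SE 0.09, adjusted p = 0.0477), and the call was lost without C13 (0.29, adjusted p = 0.160) and without any of C1, C3, C15 and C16, and in 4 other settings (adjusted p up to 0.488). The placebo call against ZL rats was lost without any of C13, C16, Z11, Z13, Z15 and Z16, with arrays centred on their median (adjusted p = 0.0727) and with only these groups in the fit (0.161). In ZO rats the change over 30 days of placebo was 0.02 (SE 0.09), and the difference of the 30-day changes, ZO minus ZL, was -0.34 (SE 0.13, adjusted p = 0.469).

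*Slc7a7*, the light chain gene of dibasic amino acid export, was lower in the ZO placebo than in the ZL placebo group. ZL placebo rats C11, C13, C15 and C16 had 10.63, 11.03, 10.66 and 10.999, and ZO placebo rats Z11, Z13, Z15 and Z16 had 10.29, 10.23, 10.21 and 10.34. The groups did not overlap, but the share of all probe sets without overlap was not counted. ZL baseline rats had 10.42 to 10.89 and ZO baseline rats 10.16 to 10.68, which overlap, and the ZO probiotic rats ran from 9.92 to 10.66 (median 10.17).

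ZO placebo rats were 1.48-fold lower in *Slc7a7* than ZL placebo rats (-0.56, SE 0.14, adjusted p = 0.0413). The call was lost without C13 (-0.50, adjusted p = 0.162) and without any of C16, Z11, Z13, Z15 and Z16, with arrays centred on their median (adjusted p = 0.0663) and with only these groups in the fit (0.0681). ZO probiotic rats were 1.56-fold lower than ZL placebo rats (-0.64, SE 0.11, adjusted p = 0.000584), also without C13 (-0.58, adjusted p = 0.00762). Over time in ZO rats the differences were -0.21 with placebo (SE 0.14, adjusted p = 0.598) and -0.29 with a probiotic (SE 0.11, adjusted p = 0.128).

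For *Slc7a8*, the light chain gene of neutral amino acid exchange, the ZL placebo rats C11, C13, C15 and C16 had 10.58, 11.28, 10.44 and 11.01. ZO placebo rats had 10.32, 10.20, 10.09 and 10.01 (Z11, Z13, Z15 and Z16). These groups did not overlap, for which no share over all probe sets was counted. At an unadjusted p under 0.05, 11.4% of all probe sets passed between these groups. The spread was wide in ZO baseline rats, at 9.13, 10.60, 10.65 and 9.85 (Z1, Z2, Z3 and Z4). ZL baseline rats ran from 9.84 to 10.59 and ZO probiotic rats from 9.68 to 10.34. ZO placebo minus ZL placebo was -0.67 (SE 0.23, adjusted p = 0.184), which did not pass, and -0.52 without C13 (adjusted p = 0.482). ZO probiotic rats were 1.76-fold lower than ZL placebo rats (-0.81, SE 0.18, adjusted p = 0.00615), a call that was lost without C13 (-0.66, adjusted p = 0.0696). ZL placebo minus ZL baseline was 0.62 (SE 0.23, adjusted p = 0.163), and 0.47 without C13 (adjusted p = 0.375).

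Marker lists of other cells and of gut regions were read beside these results, between ZO placebo and ZL placebo rats. All 6 macrophage markers had lower means in ZO rats, with 0 past the threshold and a list mean of 7.09 to 7.46 against 7.06 to 7.95. All 5 smooth muscle markers were lower in mean, again with 0 past the threshold (6.63 to 7.25 against 6.48 to 7.80). The 8 cell division markers were all lower in mean, with 0 past the threshold and list means of 7.32 to 7.48 against 7.51 to 7.98. Enterocyte markers were close, at 12.38 to 12.42 against 12.16 to 12.51. Of 5 colon markers 1 (*Best2*) was called higher, and 0 without C13, where the list's median log2 fold change was 1.06 in place of 0.26. Of 6 lymphocyte and plasma cell markers, 4 goblet cell markers, 7 proximal small intestine markers and 7 ileum markers 0 were called. Proximal small intestine markers had a median log2 fold change of -0.33, which was -0.0036 without C13, and ileum markers 0.67, which was -0.03 without C13. Between ZO probiotic and ZL placebo rats, 2.56% of all probe sets were called lower and 2.1% higher. There 1 macrophage marker and 1 proximal marker were called lower, and 2 ileum markers, 1 colon marker (*Best2*) and 2 enterocyte markers (*Fabp1* and *Apoa4*) higher. Without C13 the calls of *Fabp1* (0.20, adjusted p = 0.0372) and *Apoa4* (0.46, adjusted p = 0.0323) stayed, and the others of these were lost. The part of these lists in the transporter results was not tested beyond leaving C13 out.

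**Figure D3:**
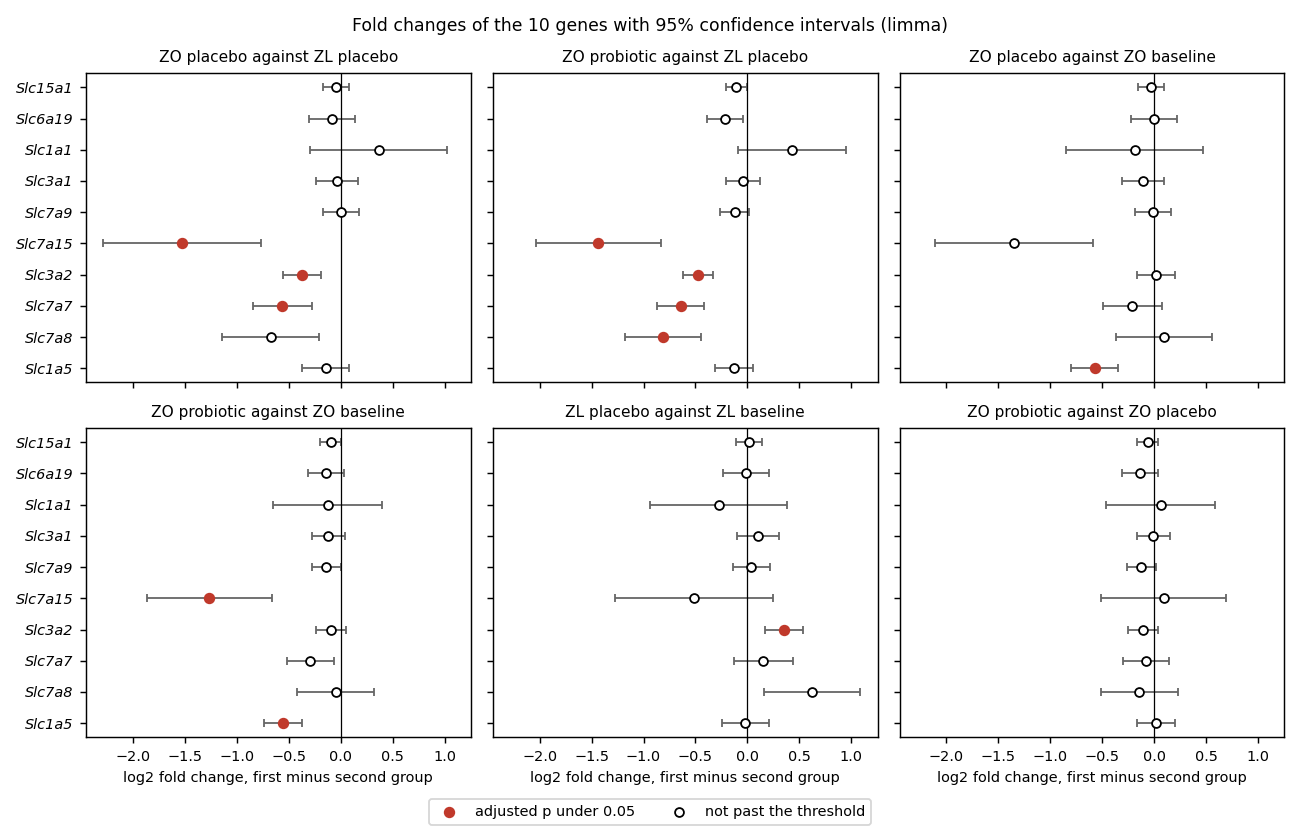
Log2 fold change of the 10 genes (first minus second group named above each panel) with 95% confidence intervals from limma, for 6 comparisons of the 5 groups; filled points passed adjusted p under 0.05 over all 29214 probe sets. *Slc7a15* lies at -1.52 and -1.43 against ZL placebo rats, *Slc1a5* at -0.57 and -0.55 against ZO baseline rats, and no gene passed between ZO probiotic and ZO placebo rats.

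*Slc1a5*, the glutamine exchanger gene, fell in ZO rats over 30 days. ZO baseline rats Z1, Z2, Z3 and Z4 had 6.49, 6.91, 6.91 and 6.86, and ZO placebo rats Z11, Z13, Z15 and Z16 had 6.28, 6.11, 6.17 and 6.34. ZO probiotic rats ran from 5.87 to 6.48, with a median of 6.28. All 4 placebo and all 16 probiotic rats were below each of the 4 ZO baseline rats, with the highest probiotic rat just under Z1. Such separation was not counted over all probe sets. ZL rats had 6.14 to 6.63 at baseline and 6.20 to 6.48 with placebo, so that the ZO baseline group had the highest mean, 6.79 ± 0.21, and the other groups lay between 6.22 and 6.39.

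The fall was 1.49-fold with placebo (-0.57, SE 0.11, adjusted p = 0.00529) and 1.47-fold with a probiotic (-0.55, SE 0.09, adjusted p = 0.000164). Both calls held with each rat of the baseline and placebo groups left out in turn, with adjusted p up to 0.0315. In ZL rats the change was -0.02 (SE 0.11, adjusted p = 0.947). The difference of the changes, ZO minus ZL, was -0.55 (SE 0.16) with p = 0.00150 before and 0.294 after adjustment over all probe sets. At baseline the ZO rats were 0.41 higher than ZL rats (SE 0.11, adjusted p = 0.233), and without C4, which had the highest ZL baseline value, this passed (adjusted p = 0.0404). The enterocyte, proximal, plasma cell and goblet cell markers named beside *Slc7a15* apply to the same rats here. Cell division markers were lower beside the fall over time as well: all 8 had lower means in ZO placebo than in ZO baseline rats, 1 of them (*Mcm5*, -0.85) past the threshold, with list means of 7.32 to 7.48 against 7.83 to 8.41. With a probiotic 4 of the 8 were called lower than at baseline, beside 3.18% of all probe sets, and list means ran from 6.09 to 7.86. The part of these lists in the *Slc1a5* result was not tested.

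The difference of the 30-day changes between ZO and ZL rats was called for 0 of the 10 genes by limma, and 0.00342% of all probe sets were called. At an unadjusted p under 0.05 it passed for 2 genes, *Slc1a5* and *Slc3a2*, and for 8.51% of probe sets. A difference between the genotypes in the change over time is therefore not shown for any of the 10 genes.

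The brush border genes showed small differences. The peptide carrier gene *Slc15a1* had group means of 12.64 to 12.74, and ZO placebo minus ZL placebo was -0.04 (95% confidence interval -0.17 to 0.08, adjusted p = 0.864). For the neutral amino acid carrier gene *Slc6a19*, means ran from 11.79 in ZO probiotic to 12.02 in ZL baseline rats, and single rats from 11.47 to 12.11. The largest difference of *Slc6a19* between groups tested was ZO probiotic minus ZL placebo, -0.22 (-0.39 to -0.04, adjusted p = 0.156), and -0.25 without C13 (adjusted p = 0.203). A p above the threshold does not show equal levels, and the intervals bound how far these means could lie apart.

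Neither partner of cystine and dibasic amino acid exchange was called in any comparison with all 32 rats. *Slc3a1* had group means of 11.25 to 11.43, and ZO placebo minus ZL placebo was -0.04 (-0.24 to 0.17). *Slc7a9* had means of 11.12 to 11.26, and the same difference was 0.0033 (-0.17 to 0.18). ZO probiotic minus ZO baseline was -0.14 for *Slc7a9* (-0.28 to 0.0030, adjusted p = 0.290), and without Z1, at 10.95 the lowest ZO baseline rat, it passed (adjusted p = 0.0382).

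*Slc1a1*, the glutamate carrier gene, had 1 array far below the others, that of C13. ZL placebo rats C11, C13, C15 and C16 had 9.32, 6.78, 9.13 and 9.11, and ZO placebo rats 8.85 to 9.18. ZO placebo minus ZL placebo was 0.37 (SE 0.32, adjusted p = 0.747) and turned to -0.24 (SE 0.20, adjusted p = 0.796) without C13. The second *Slc1a1* probe set, with a mean of 5.76 over all rats, gave -0.14 (SE 0.24, adjusted p = 0.891), and C13 was again the lowest ZL placebo rat there, at 4.88 against 5.93 to 6.18. No comparison called either probe set.

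Between ZO probiotic and ZO placebo rats the 10 differences ran from -0.14 (*Slc7a8*) to 0.09 (*Slc7a15*). The 95% confidence interval was -0.51 to 0.69 for *Slc7a15*, -0.31 to 0.15 for *Slc7a7*, -0.25 to 0.04 for *Slc3a2* and -0.16 to 0.20 for *Slc1a5*. With 16 and 4 rats, changes of *Slc7a15* up to those bounds remain possible. The rat numbers of the probiotic group fall into 4 sets by their first digit, which the labels tie to no preparation. Among these sets limma's F test passed for 0 of the 10 genes and 0% of all probe sets, and the lowest adjusted p was 0.794, for *Slc6a19* (unadjusted 0.0272, set means 11.69 to 11.98).

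Genes whose products form a complex varied together from rat to rat. *Slc3a1* and *Slc7a9* had r = 0.66 and rho = 0.71 over the 32 rats (permutation test, two-sided, adjusted p = 3e-05 for each, over 3 pairs). For *Slc3a2* and *Slc7a7*, r was 0.81 and rho 0.81 (permutation adjusted p = 1.5e-05 for each), and for *Slc3a2* and *Slc7a8* r was 0.82 and rho 0.68 (permutation adjusted p = 1.5e-05 for each). The smallest p that 100000 resamples can give is 1e-05 before adjustment. After removing the group means, r was 0.70, 0.70 and 0.67 in the same order, and without C13 it was 0.66, 0.77 and 0.76. Without the 2 rats farthest from the median of the heavy chain gene it was 0.60, 0.71 and 0.68. Within the 16 ZO probiotic rats alone r was 0.74 and 0.73 for the first pairs (permutation adjusted p = 0.0018 for both), but 0.36 for *Slc3a2* and *Slc7a8* (permutation p = 0.177) with a rho of 0.49 (permutation p = 0.0546). The last relation did not pass within that group, and its r was 0.59 without Z36 and Z46, the rats farthest from the median of *Slc3a2*. The groups of 4 rats are too small for a value of their own, and arrays share their normalization. For each of these subunit genes another gene was closer than its partner, as *Slc16a10* was for *Slc7a7* (r = 0.96) and *Lxn* for *Slc3a1* (0.81). Pairs that form no complex were not tested, so these values are not particular to partners.

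**Figure D4:**
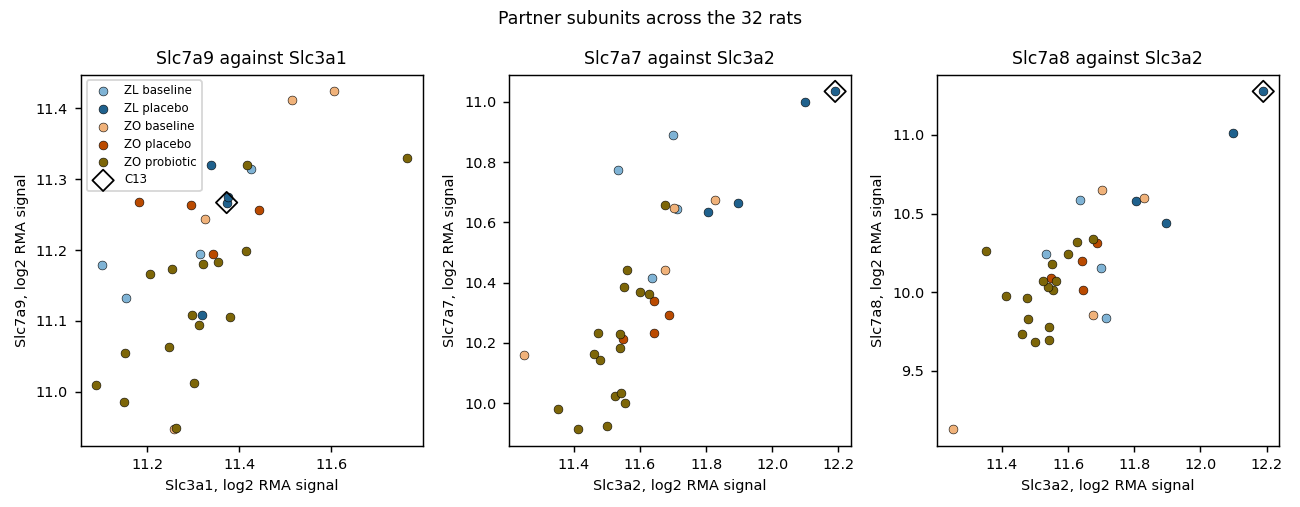
Log2 RMA signal of light chain genes (vertical axis) against their heavy chain genes (horizontal axis), 1 point per rat coloured by group, 32 rats, with C13 marked by a diamond. The points of *Slc3a2* with *Slc7a7* rise together (r = 0.81), and C13 is the highest point of both *Slc3a2* panels.

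Among all genes on the array, those most like each of the 10 over the 32 rats were named by Pearson's r, as a description. *Slc7a15* was most like *Slc16a14* (0.88), *Ugt2b1* (0.87) and *Slc52a3*, a riboflavin transporter gene (0.86), and without C13 these were 0.88, 0.87 and 0.87. *Slc7a7* was most like *Slc16a10* (0.96), the basolateral carrier gene of aromatic amino acids, and so was *Slc3a2* (0.83). *Slc7a8* was most like *Slc36a1* (0.89), a proton-coupled amino acid carrier gene. For *Slc15a1* the closest was the copper transporter gene *Slc31a1* (0.87), for *Slc6a19* *Mertk* (0.79), for *Slc7a9* *Napa* (0.72), for *Slc3a1* *Lxn* (0.81), for *Slc1a1* *Sema3a* (0.89, and 0.81 without C13) and for *Slc1a5* *Sgpp2* (0.83).

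A list of 32 other amino acid and peptide transporter genes was compared in the same fits. Between ZO placebo and ZL placebo rats 1 was higher and 0 lower, with a list median of -0.05, beside the 1.04% of probe sets called. It was *Slc6a9*, a glycine transporter gene, at 7.19 to 7.65 in ZO placebo and 5.98 to 7.06 in ZL placebo rats (0.90, SE 0.22, adjusted p = 0.0421). C13 was the lowest ZL placebo rat there, and without it the call was lost (0.72, adjusted p = 0.203). At baseline, over 30 days of placebo in either genotype, in the difference of these changes and between ZO probiotic and ZO placebo rats, limma called 0 of the 32. With C13 left out of the shared estimate of the spread, *Slc6a6* passed as lower in ZO rats over 30 days of placebo (-0.30, adjusted p = 0.0382).

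ZO probiotic rats had 4 of the 32 lower than ZL placebo rats and 0 higher, beside 2.56% of all probe sets lower and 2.1% higher. The largest was *Slc16a10*, with 9.75 to 10.74 (median 10.05) against 10.92 to 11.78 (-1.15, SE 0.21, adjusted p = 0.000909). *Slc6a14*, a broad-range carrier gene for neutral and cationic amino acids, had 6.94 to 8.55 against 8.61 to 9.05 (-0.89, SE 0.22, adjusted p = 0.0139). *Slc43a2*, a basolateral exporter gene of neutral amino acids, was lower by less (-0.58, SE 0.11, adjusted p = 0.00189), as was *Slc36a1* (-0.70, SE 0.19, adjusted p = 0.0304). Without C13, 3 of the 4 stayed called and *Slc36a1* did not (adjusted p = 0.162), and over all probe sets 684 were called in place of 1360. ZO placebo means of these 4 genes also lay below the ZL placebo means, though 0 were called. They were 10.38 against 11.31 (*Slc16a10*), 7.99 against 8.78 (*Slc6a14*), 10.87 against 11.34 (*Slc43a2*) and 10.49 against 10.91 (*Slc36a1*). ZO probiotic means were 10.16, 7.89, 10.76 and 10.21 in that order.

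Against ZO baseline rats, 4 of the 32 were called lower in ZO probiotic rats and 0 higher, beside 3.18% of all probe sets lower and 2.44% higher. *Slc7a11*, the cystine and glutamate exchanger gene, had 5.48 to 7.40 (median 6.87) against 7.43 to 8.38 at baseline (-1.29, SE 0.26, adjusted p = 0.00266). The study picked this gene from the same arrays for a PCR check, so its direction here is not independent evidence. That choice rested on another comparison, probiotic against placebo, where the means here were 6.59 and 7.21 and limma did not call the gene. By PCR the study also reported it lower in ZO placebo than in ZO baseline rats. The others were *Slc6a14* (-1.0, adjusted p = 0.00486), *Slc7a5*, a light chain gene that pairs with *Slc3a2* (-0.78, adjusted p = 0.0218), and *Slc6a6*, the taurine transporter gene (-0.32, adjusted p = 0.0221). With placebo these 4 genes were also lower than at ZO baseline, by -0.66 (*Slc7a11*), -0.90 (*Slc6a14*), -0.53 (*Slc7a5*) and -0.30 (*Slc6a6*), with 0 called. Between ZO probiotic and ZO placebo rats 0 of the 32 were called, so these falls are not shown to be particular to the probiotic.

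**Figure D5:**
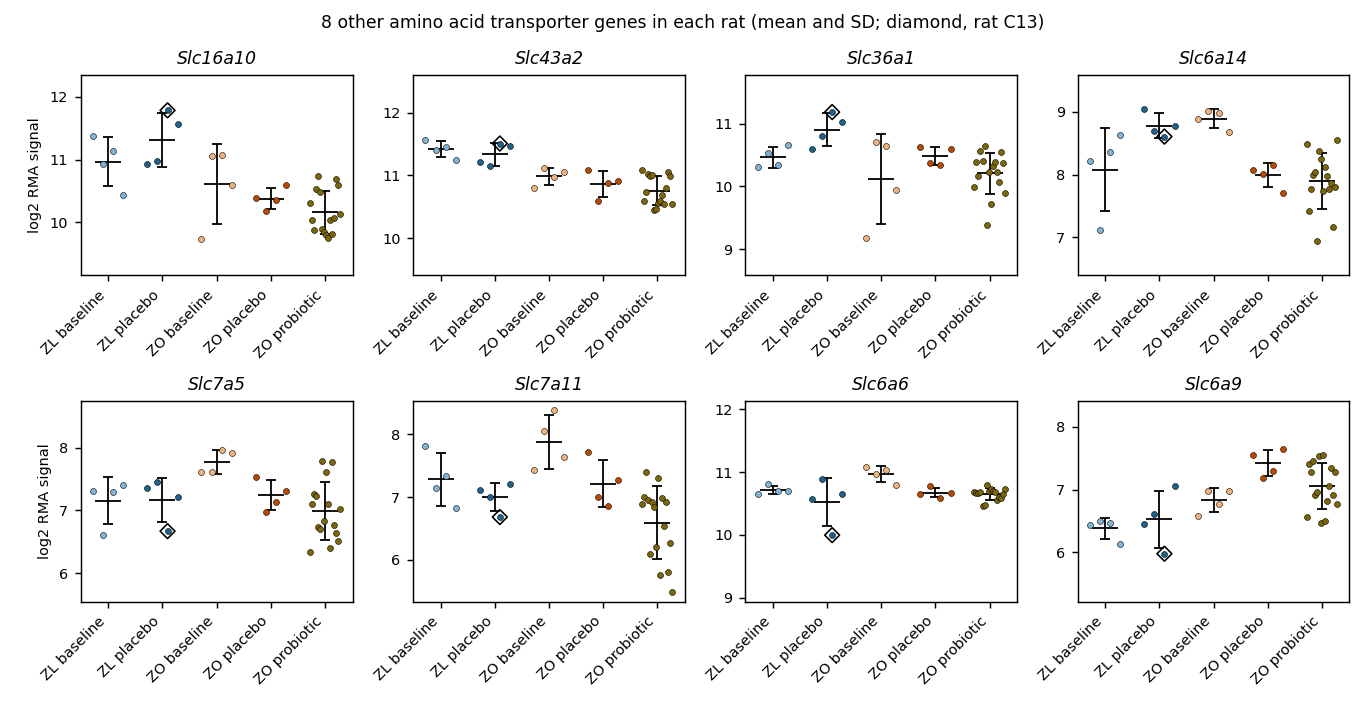
Log2 RMA signal of 8 other amino acid transporter genes, 1 point per rat in the 5 groups (n = 4, 4, 4, 4 and 16), with the mean and SD as bars and rat C13 marked by a diamond; each panel spans the same number of log2 units. *Slc16a10* in ZO probiotic rats (9.75 to 10.74) lies below all 4 ZL placebo rats (10.92 to 11.78).

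The 11 peptidase and carrier-partner genes measured include *Anpep*, *Dpp4* and *Enpep* of the brush border. In ZO probiotic rats 1 of the 11 was called lower than in ZL placebo rats, beside 2.56% of all probe sets. It was *Mme*, the neprilysin gene (-0.58, SE 0.13, adjusted p = 0.00727). Without C13 *Mme* was lost (-0.52, adjusted p = 0.0575), and 2 others passed as lower, *Dpp4* (-0.23, adjusted p = 0.0488) and *Cndp2* (-0.32, adjusted p = 0.0229). In the other comparisons of 2 groups and in the difference of changes limma called 0 of the 11, and the list medians lay between -0.02 and 0.03 with all rats. Without C13 the medians were -0.06 for ZO placebo against ZL placebo, 0.09 for ZL rats over time, -0.07 for the difference of changes and -0.08 for ZO probiotic against ZL placebo.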

How the data were processed

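RNA of the intestinal mucosa of 32 rats was hybridised to Affymetrix Rat Gene 1.1 ST arrays, and the authors computed RMA signals with the Affymetrix Expression Console; the methods also name the Partek Genomics Suite. Each deposited value is a score that holds the digits of the authors' log2 signal without its decimal point, which only 161 of 934848 values kept. Values starting with 10 to 13 were read as numbers with 2 digits before the point and all others with 1, and the tests, planned for log2 values, were run after that. Placing the point nearest to the probe set's median on the other arrays changed 8 values, none of the 10 genes.

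Gene symbols came from the platform's annotation and groups from the sample titles. Limma 3.58.1 (R 4.3.3) fitted 5 group means to 29214 probe sets without a filter, and p-values were adjusted by Benjamini-Hochberg over all probe sets of a comparison, with a threshold of 0.05 and no minimum fold. Confidence intervals are at 95%. Correlations used 100000 permutations (scipy 1.17.1). Nothing but the labels says that rats of a group are independent animals. Arrays have no depth, and the number of rats limits the precision.

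The 10 genes, the lists and the tests were chosen with earlier results of these data known. Of the listed genes, those past the threshold with the largest change were named, at most 4 per list and comparison. Statements that all rats of a group lay above or below another group are descriptions, as this was not counted over all probe sets. Some listed genes without a probe set of their own symbol were not analysed here. Alternatives were other normalizations, centring, filters, array weights, a trended prior, a replicate block, fits of only the groups compared, and leaving out each rat of the baseline and placebo groups.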

Additional observations from a re-analysis of the deposited data

Results flagged for a closer look

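Among 40 sets of 4 rats (10 genes in 4 groups), 4 held a rat farther from the other 3 than Dixon's 95% criterion allows, and chance gives about 1 in 20. In the ZL placebo group, C13 had *Slc1a1* at 6.78, and the other 3 rats had 9.11 to 9.32. In the ZO baseline group, Z1 had *Slc1a5* at 6.49, below 6.86 to 6.91. In the ZL baseline group, C4 had *Slc7a15* at 10.46, below 11.71 to 11.87. C4 also had the lowest ileum marker mean of that group (9.95 against 10.98 to 11.36), whose part in this was not tested. In the ZO placebo group, Z15 had *Slc7a9* at 11.19, below 11.26 to 11.27, a gap of little size.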

How the results depend on the processing

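The number of the 10 genes called moved in the placebo comparisons. Between ZO placebo and ZL placebo rats (3) it was 1 with arrays centred on their median and 0 with only these groups in the fit. In ZL rats over time (1) it was 0 with quantile normalization, centring, array weights or only these groups. In ZO rats over 30 days of placebo (1) it was 2, with *Slc7a15* added, without the lowest 30% of probe sets, with 1 probe set per gene, with array weights and with only these groups. Here and in the counts below, the rat left out was 1 of the groups compared. Leaving out 1 rat at a time gave 0 to 2 genes for ZO placebo against ZL placebo, 0 to 1 at baseline and over time in ZL rats, 1 to 1 over time in ZO rats with placebo, 3 to 4 for ZO probiotic against ZL placebo and 2 to 3 against ZO baseline. Without C13, no part of that comparison, ZO rats over placebo feeding had 2 genes called, *Slc7a15* and *Slc1a5*. The probiotic calls passed in every setting other than a rat left out, and no called gene changed sign in any setting.

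Rats of ZL and ZO groups share last digits of their numbers, but the 8 pairs' deviations correlated at only -0.04 to 0.23 and 2 of 8 rats matched best with their own number, so the numbers were not taken to pair the rats. With the replicate block, 3, 1, 1, 4 and 2 genes passed for ZO placebo against ZL placebo, ZO and ZL rats over 30 days of placebo, ZO probiotic against ZL placebo and against ZO baseline. In ZO rats over placebo feeding, *Slc1a5* was lost under the block (adjusted p = 0.0914) and *Slc7a15* passed (0.0401). Only the last digits 1 and 3 occur both at baseline and at 30 days. Changes over time under the block therefore rest mainly on rats with those digits, as the block is largely mixed with time.

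Over all probe sets, calls for ZO placebo against ZL placebo were 304, with 673 under array weights, 118 with only these groups and 115 to 383 with a rat left out. For ZO placebo against ZO baseline they were 398, with 1231 under array weights, 251 under the block and 172 to 356 with a rat left out. For ZL placebo against ZL baseline they were 266, with 66, 85, 73 and 0 under quantile normalization, centring, array weights and only these groups, 1989 under the block and 32 to 1281 with a rat left out. At baseline they were 0 and at most 307 with a rat left out. Against ZL placebo, ZO probiotic rats gave 1360 and 684 to 1498 with a rat left out, and against ZO baseline 1640, 921 under the block and 842 to 1321 with a rat left out. The cause was not tested. With 4 rats in most groups, a difference that was not called may still be as large as the bounds of its interval.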
